A study of Mus musculus with 4 samples.

Results

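The genes described here are 10 transcripts of liver sinusoidal endothelial cells: Stab2, Lyve1, Clec4g, Kdr, Pecam1, Oit3, Fcgr2b, Gata4, Ehd3 and Vwf. They were taken by symbol from a table of 24138 rows of bulk liver RNA sequencing, and all 10 were found, 1 row each. The samples are 4 livers of C57BL/6J mice, labelled as male and 18 weeks old. All came from mice fed the FAT-MASH diet, which models MASH (steatohepatitis linked to metabolic dysfunction), and treated with resolvin D1 (RvD1), a docosahexaenoic acid derivative that acts to end inflammation. These livers, numbered 1 to 4 as in the labels, which do not name the animals, form 1 group, and libraries without RvD1 or on another diet were not analysed here. The values therefore give levels and their spread between livers, and no effect of the diet or of RvD1 can be read from them.

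Sinusoidal endothelial cells line the blood channels of the liver lobule. They differ from the endothelium of most organs in having open pores and little basement membrane, and they clear macromolecules from blood through scavenger receptors, lectins and Fc receptors. In fibrotic liver this endothelium is known to take on features of continuous capillaries, with loss of pores and gain of basement membrane, Cd34 and Vwf. Stab2, Lyve1, Clec4g, Fcgr2b, Oit3 and Ehd3 are used as markers of the sinusoidal type, Pecam1 and Kdr are expressed by endothelium in general, Gata4 encodes a transcription factor needed for the sinusoidal programme, and Vwf is typical of larger vessels. Several members are not restricted to these cells: Fcgr2b is also expressed by B cells and macrophages, Lyve1 by lymphatic endothelium and some macrophages, Pecam1 by leukocytes and platelets, Vwf by megakaryocytes and Gata4 by hepatocytes.

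Promoter sequence of RefSeq in GRCm38.p6, the same build as the mm10 named in the submitters' processing notes, was matched for 5 of the 10 members: Stab2, Clec4g, Kdr, Fcgr2b and Ehd3. The 250 bases before the start site were searched on both strands for a GATA motif (the letters AGATAA or TGATAA or AGATAG or TGATAG), since Gata4 is a member, and for an ETS motif (AGGAAG or CGGAAG), the kind of site that the endothelial factor Erg reads. The GATA motif was in 2 of these 5 windows, against 26.5% of 32851 windows of the same length, and the ETS motif in 2 of 5, against 39.2%. The 3 windows with a match are shown because they carry these letters. Each reads 5′ to 3′ on the strand of the gene and ends at the base before the start site, and capitals mark the matches.
Clec4g: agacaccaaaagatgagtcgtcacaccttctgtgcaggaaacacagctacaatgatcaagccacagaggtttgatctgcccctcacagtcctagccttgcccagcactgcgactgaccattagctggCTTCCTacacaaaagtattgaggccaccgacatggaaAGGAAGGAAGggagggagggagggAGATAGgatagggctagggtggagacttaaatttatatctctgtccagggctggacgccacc
Ehd3: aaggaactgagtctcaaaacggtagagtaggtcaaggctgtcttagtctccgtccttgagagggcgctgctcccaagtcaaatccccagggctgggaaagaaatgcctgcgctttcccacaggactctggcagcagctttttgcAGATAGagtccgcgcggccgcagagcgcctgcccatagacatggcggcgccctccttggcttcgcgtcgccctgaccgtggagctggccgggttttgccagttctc
Stab2: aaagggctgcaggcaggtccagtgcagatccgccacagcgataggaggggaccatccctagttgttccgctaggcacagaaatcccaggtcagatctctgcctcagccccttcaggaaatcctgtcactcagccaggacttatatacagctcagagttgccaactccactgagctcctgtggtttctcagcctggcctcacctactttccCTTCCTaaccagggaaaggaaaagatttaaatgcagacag
The Clec4g window (chr8:3720652-3720901, minus strand) held 1 GATA match and 3 ETS matches, of which 2 overlap in the run of repeated purines and 1 is read on the opposite strand. The Ehd3 window (chr17:73804591-73804840, plus strand) held 1 GATA match that begins 106 bases before the start. The Stab2 window (chr10:87007943-87008192, minus strand) held 1 ETS match, on the opposite strand, 40 bases before the start. The Kdr and Fcgr2b windows held neither motif. A TATA motif (the letters TATAAA) was also searched and was in 1 of the 5 windows, that of Clec4g, against 12.4% of windows. A FOX motif (TGTTTAC or TGTTTGC) was in 0 of 5, against 7.29%. Neither of these is marked by capitals. A match describes the letters only.

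The deposited values are FPKM, fragments scaled to transcript length and library size, so levels can be set side by side between genes. The table holds no read counts. The smallest values of genes with 1 annotated transcript gave a rough depth of about 20.1, 19.3, 19.5 and 18.8 M (mega) fragments in livers 1 to 4. Only values that, scaled to 1 kb, lay between 25 and 75 thousandths of an FPKM were used. The estimates could fall only within that window, and they lie near its middle. They are therefore a working assumption, on which all fragment numbers and counting-error intervals below rest. At that depth the lowest value among the members, Vwf in liver 4, would rest on about 89 fragments. Liver 2 stood apart from the others in acute phase genes: Saa1, encoding serum amyloid A and named after its values were seen, stood at 139, 2135, 45.6 and 131 FPKM in livers 1 to 4. Hepatocyte markers were abundant in every library, with Apoa1 between 11922 and 15343 FPKM, whereas Alb was listed at 0 in all 4, a value that cannot be read as absence of the transcript. A mean of 1 FPKM or more was found for 9 of the 10 members, all but Vwf, and for 10541 genes of the whole table, which serve as the background below.

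Means over the livers placed Clec4g first, at 29.3 ± 2.96 FPKM, and Vwf last, at 0.762 ± 0.236 FPKM (each SD, n = 4). Between them came Fcgr2b, Ehd3, Oit3, Gata4, Pecam1, Stab2, Kdr and Lyve1. Neighbours in this order were apart, with ranges over the livers that do not overlap, in 3 of 9 pairs: Clec4g above Fcgr2b, Fcgr2b above Ehd3, and Lyve1 above Vwf. The other 6 neighbouring pairs overlapped, although Ehd3 was above Oit3, and Pecam1 above Stab2, in 4 of 4 livers. No test between members was made, since 4 samples are too few for a paired exact test to pass 0.05.

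**Figure D1:**
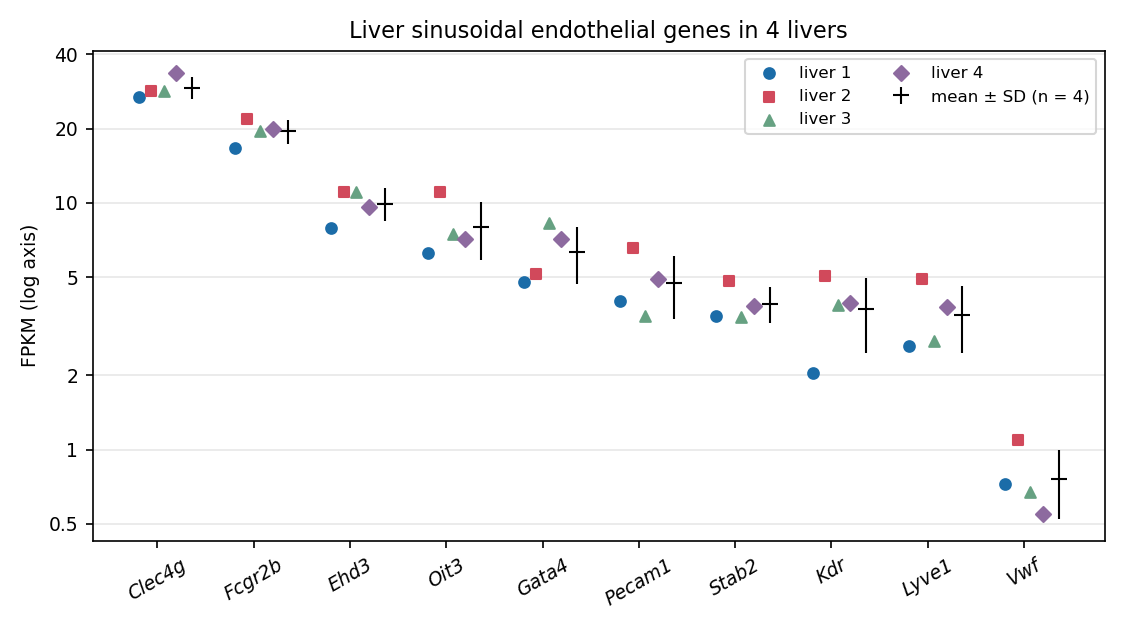
FPKM (log axis) of the 10 genes in each of the 4 livers, ordered by mean, with the mean ± SD over the 4 livers beside the points. Clec4g lies between 26.7 and 33.6 FPKM and Vwf between 0.548 and 1.10 FPKM, and liver 1 is the lowest point for 7 genes.

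The scavenger and lectin receptors spanned a wide range of levels. Clec4g (XLOC_021110, chromosome 8, 3716071 to 3720651, minus strand) encodes a C-type lectin that binds glycans and had 26.7, 28.5, 28.4 and 33.6 FPKM in livers 1 to 4, the order in which all values below are given. Its highest-over-lowest ratio was 1.26 and its SD 0.14 on the log2(FPKM + 1) scale, an SD that fell to 0.05 without liver 4. Liver 4 was its highest value, and the other 3 livers lay close together.

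Stab2 (XLOC_002254, chromosome 10, 86841210 to 87007942, minus strand), which encodes stabilin-2, a scavenger receptor for hyaluronan, had 3.49, 4.83, 3.44 and 3.84 FPKM. Liver 2 was the highest and the other livers were close to each other, with a mean of 3.90 ± 0.649 FPKM (SD, n = 4). Its relative Stab1, also expressed by macrophages, was 3.82, 5.54, 4.31 and 4.27 FPKM, and the ratio of Stab2 to Stab1 stayed between 0.797 and 0.913. Both stabilins were thus highest in liver 2 and kept nearly the same proportion in every liver.

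Lyve1 (XLOC_020233, chromosome 7, 110850607 to 110862953, minus strand) encodes a membrane receptor that also binds hyaluronan and had 2.63, 4.92, 2.75 and 3.77 FPKM. Liver 2 exceeded liver 1 by 1.87-fold, with a 95% interval from 1.52 to 2.29 for counting error alone. Livers 1 and 3 were low and about equal, with liver 4 between them and liver 2. Lyve1 varied more than Stab2 (SD of 0.33 against 0.18 on the log2 scale, and 0.21 against 0.07 without liver 2), and the ratio of Lyve1 to Stab2 ran from 0.755 in liver 1 to 1.02 in liver 2.

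Fcgr2b (XLOC_001196, chromosome 1, 170960559 to 170976071, minus strand), the inhibitory Fc receptor through which sinusoidal endothelium takes up small immune complexes, had 16.7, 21.8, 19.5 and 19.9 FPKM. Its highest-over-lowest ratio was 1.31, with liver 1 low and the other livers close together. Fcgr3, an activating receptor of myeloid cells, was 7.41, 10.8, 8.29 and 10.5 FPKM, and Fcgr4 was 5.43, 8.27, 4.02 and 6.82 FPKM. Fcgr2b was above both in every liver, by between 1.90-fold and 2.35-fold over Fcgr3. The antisense gene Gm38204 overlaps Fcgr2b in the annotation, as Gm16553 does Clec4g and 3 antisense genes and 2 pseudogenes do Stab2. Strand use in the quantification is not given in the sources used here, so reads of these partners cannot be told apart from those of the members.

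Oit3 (XLOC_002065, chromosome 10, 59422960 to 59441779, minus strand), which encodes a zona pellucida domain protein, had 6.25, 11.1, 7.46 and 7.17 FPKM. Liver 2 was above the next liver by a wide margin, the others lay within a narrow band, and the highest-over-lowest ratio was 1.77 (95% interval for counting error 1.54 to 2.04). Ehd3 (XLOC_009045, chromosome 17, 73804841 to 73832093, plus strand), which encodes an EH domain protein of endocytic membrane traffic, had another order, at 7.92, 11.1, 11.1 and 9.57 FPKM. Livers 2 and 3 were nearly equal and highest, and liver 1 was lowest. Among the other EH domain genes, Ehd1 was 13.2, 11.2, 15.6 and 13.6 FPKM, Ehd4 was 3.92, 5.33, 4.17 and 4.08 FPKM, and Ehd2 was 3.46, 4.13, 3.31 and 1.77 FPKM. Ehd3 was at least 2.02 times Ehd4 in each liver and below Ehd1 in each.

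Of the genes of endothelium in general, Kdr varied most of all members. Kdr (XLOC_016570, chromosome 5, 75933270 to 75978428, minus strand) encodes VEGF receptor 2, the main signalling receptor for VEGF-A, and had 2.04, 5.06, 3.85 and 3.92 FPKM. Liver 1 lay well below the others, livers 3 and 4 were nearly equal, and liver 2 was the highest. The 2.48-fold ratio of liver 2 to liver 1 has a 95% interval from 2.13 to 2.89 for counting error, on about 560 and 235 fragments. Kdr's SD of 0.42 on the log2 scale fell to 0.18 without liver 1. Its place as the most variable member rests on that liver, since without it Pecam1 had the largest SD, at 0.38.

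The related receptor genes Flt1 and Flt4 were not lowest in liver 1. Flt1, encoding VEGF receptor 1, was 0.628, 0.612, 0.563 and 0.337 FPKM, with its lowest value in liver 4. Flt4, encoding VEGF receptor 3, was 6.26, 6.87, 4.50 and 5.26 FPKM, with its lowest value in liver 3. As a result, the ratio of Kdr to Flt4 was 0.326 in liver 1 and between 0.737 and 0.855 in the other livers. Nrp1, a VEGF co-receptor named after its values were seen, did have its lowest value in liver 1, at 10.1, 12.9, 17.4 and 11.8 FPKM. Vegfa, the ligand, was 42.8, 43.1, 48.3 and 34.2 FPKM. Of the 10 measured genes of the VEGF and angiopoietin list, 8 were above their 4-liver mean in liver 2 and 6 in liver 1 (4 and 3 of the 5 with a mean of 1 FPKM or more), where the shares over the 10541 background genes (those with such a mean) were 45.1% and 47.2%.

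Pecam1 (XLOC_004120, chromosome 11, 106654213 to 106715281, minus strand), which encodes the junctional adhesion molecule CD31, had 3.99, 6.56, 3.47 and 4.92 FPKM. Liver 2 was highest and liver 3 lowest, a ratio of 1.89 (95% interval for counting error 1.58 to 2.25). Cdh5, which encodes VE-cadherin of the same junctions, was 2.97, 4.61, 4.77 and 3.25 FPKM, so that liver 3 was the highest for Cdh5 and the lowest for Pecam1. The ratio of Pecam1 to Cdh5 was 0.728 in liver 3 and between 1.34 and 1.51 in the other livers.

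Gata4 (XLOC_006744, chromosome 14, 63198915 to 63245260, minus strand) had 4.80, 5.13, 8.29 and 7.10 FPKM. Livers 3 and 4 were high and livers 1 and 2 low, whereas liver 2 was the highest for Stab2, Lyve1 and Pecam1. Gata6, a related factor, was 5.25, 6.72, 5.60 and 4.16 FPKM, highest where Gata4 was low, and the ratio of Gata4 to Gata6 ran from 0.763 in liver 2 to 1.71 in liver 4. Gata2 was at 0.435 FPKM or below in every liver. Hnf4a, a hepatocyte transcription factor chosen for comparison after its values were seen, was 93.9, 104, 156 and 118 FPKM, and the ratio of Gata4 to Hnf4a stayed between 0.0494 and 0.0602, a 1.22-fold range against 1.73-fold for Gata4 itself. The hepatocyte markers did not share that order as a list: over the 7 above 0, the median deviation in liver 3 was -0.07, and 3 of 7 were above their mean there. How much of the Gata4 signal comes from hepatocytes was not tested.

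Vwf (XLOC_017554, chromosome 6, 125552948 to 125686679, plus strand), which encodes von Willebrand factor, an adhesive protein of haemostasis, had 0.727, 1.10, 0.674 and 0.548 FPKM. Liver 2 was the highest, at 2.00 times liver 4 (95% interval for counting error 1.56 to 2.58). Its low level means that the log2(FPKM + 1) scale compresses its spread, from an SD of 0.37 with a pseudocount of 0.1 to 0.19 with 1, and the latter fell to 0.08 without liver 2. The ratio of Vwf to Stab2 was 0.209, 0.227, 0.196 and 0.143.

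**Figure D2:**
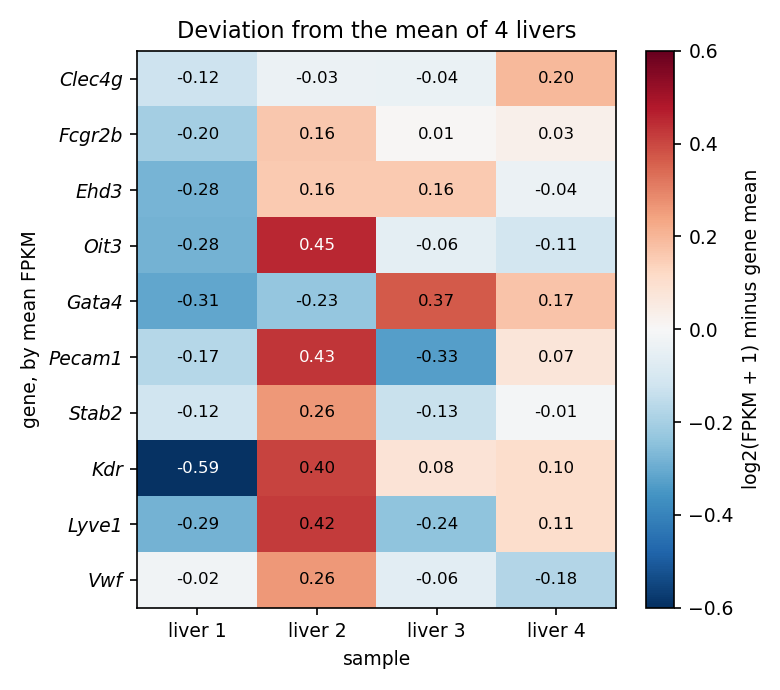
Deviation of each gene from its own mean over the 4 livers, on the log2(FPKM + 1) scale, with genes in rows by mean level and livers in columns. The liver 1 column is negative for all 10 genes, from -0.02 for Vwf to -0.59 for Kdr, and the liver 2 column is positive for 8.

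Across the members, liver 1 was low and liver 2 high. No member was above its 4-liver mean in liver 1 (0 of 10), against 47.2% of the 10541 background genes. In liver 2, 8 of 10 were above it, against 45.1%, and in liver 4, 6 of 10, against 60.8%. Over the 9 members that reach the background's minimum of 1 FPKM, all but Vwf, these counts were 0, 7 and 6. Liver 1 was the lowest of the 4 for 7 members, against 20.7% of all genes tested, the exceptions being Pecam1 and Stab2, lowest in liver 3, and Vwf, lowest in liver 4. Liver 2 was the highest for 7 members, against 22.0% of all genes, the exceptions being Gata4, highest in liver 3, Clec4g, highest in liver 4, and Ehd3, whose nearly equal livers 2 and 3 were counted under liver 3 (2 of 10 members with Gata4, against 26.8%). Both held together, liver 2 highest and liver 1 lowest, for 4 members (Fcgr2b, Oit3, Kdr and Lyve1), against 5.79% of all genes. For livers 1 to 4 the median deviation of the 10 members was -0.24, 0.26, -0.05 and 0.05, beside -0.01, -0.02, -0.01 and 0.04 over all genes tested. Without liver 2, the median deviation in liver 1 was -0.14 and 1 of 10 members was above its mean there. The small medians of livers 3 and 4 changed sign with a liver left out, to 0.04 in liver 3 without liver 2 and -0.04 in liver 4 without liver 1. In bulk RNA, fewer cells of a type and less RNA per cell cannot be told apart.

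The spread between livers differed among members. The median SD of the 10 members was 0.26 on the log2 scale, beside 0.16 over all genes tested. An SD of at least 0.25 was found for 5 members (Kdr, Pecam1, Lyve1, Gata4 and Oit3), against 18.3% of all genes, and a highest-over-lowest ratio of at least 1.5 for 6, which adds Vwf, against 28.4%. Without liver 2 the median SD of the members was 0.18, 2 members had an SD of at least 0.25, and 2 a ratio of at least 1.5 (Kdr and Gata4). With a pseudocount of 5 in place of 1, 0 members had such an SD and their median SD was 0.16. No background is given at that pseudocount. The gap of the most extreme liver to its neighbour, as a share of the range, passed Dixon's 95% critical value for 0 members, against 5.46% of all genes.

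Pecam1 served as a common endothelial reference for the other 9 members. Relative to Pecam1, Lyve1 became the steadiest, with an SD of 0.09 for the log2 ratio against 0.33 for Lyve1 itself, and Stab2, Oit3 and Kdr also narrowed. Clec4g, Fcgr2b, Ehd3, Gata4 and Vwf became wider, Gata4 from 0.32 to 0.56. These widths depend on single livers. Without liver 3, where Pecam1 was lowest, 7 of 9 narrowed, all but Clec4g and Gata4, and the median SD of the ratios was 0.13 in place of 0.25. Without liver 1, 3 of 9 narrowed, and without liver 2, 2 of 9, Lyve1 and Clec4g. Lyve1 narrowed whichever liver was left out, to between 0.05 and 0.11. With Cdh5 as the reference, 3 of 10 narrowed: Ehd3, from 0.21 to 0.11, Oit3 and Kdr. Liver 3 was low for Lyve1 and Pecam1 and high for Ehd3 and Cdh5.

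**Figure D3:**
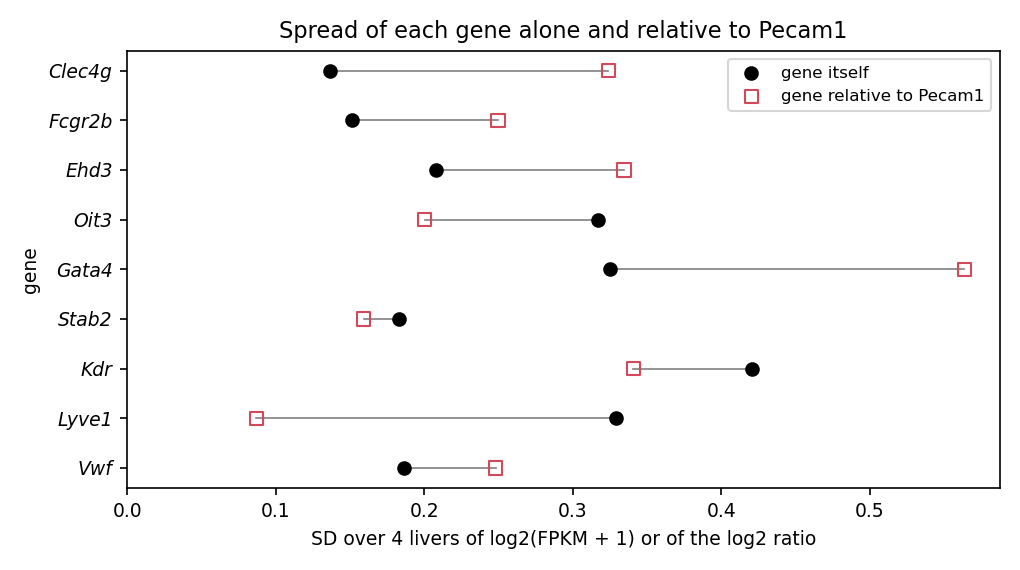
SD over the 4 livers of each gene alone (filled circles, log2(FPKM + 1)) and of its log2 ratio to Pecam1 (open squares), with a line joining both values of a gene. The ratio is narrower than the gene for 4 of 9 genes, with Lyve1 at 0.09, and wider for 5, with Gata4 at 0.56.

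Other endothelial genes from the lists were examined in the same way. List counts cover every measured gene, those under the background's minimum of 1 FPKM included, and the counts over genes that reach it are given beside them. Some genes stand in more than 1 list, as Maf, Sox18 and Erg do, so counts of different lists partly repeat each other. The sinusoidal identity and pan-endothelial lists hold 27 measured genes that are no members. Of these, 23 were above their mean in liver 2, against 45.1% of all genes, and 4 in liver 1, against 47.2%. Liver 2 was the highest for 17, against 22.0%, and liver 1 the lowest for 14, against 20.7%. Over the 23 that reach the minimum, these counts were 20, 3, 14 and 12. Gpr182, a receptor of sinusoidal endothelium, was 9.69, 15.6, 14.1 and 12.8 FPKM, and Dnase1l3, a secreted nuclease of these cells, was 6.73, 9.37, 9.64 and 8.40 FPKM, both with liver 1 lowest as for Ehd3. Liver 3 was the highest for 6 of the 27 (5 of the 23), Dnase1l3, Cdh5 and Eng among them, against 26.8% of all genes. Eng, an endothelial co-receptor for TGF-beta family ligands, was 20.9, 25.4, 27.5 and 21.2 FPKM.

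Of 15 listed transcription factors of sinusoidal endothelium, 14 were above their mean in liver 2, against 45.1% of all genes, and 12 had their highest value there, against 22.0%. Of the 8 that reach the minimum, 7 were above their mean there and 7 had their highest value there. Maf, which promotes the sinusoidal programme, was 6.40, 9.0, 7.56 and 6.34 FPKM, and Sox18, an endothelial factor, was 5.10, 8.16, 5.54 and 5.55 FPKM. Klf2, an exception named after its values were seen, is induced by blood flow and was 4.02, 5.27, 7.58 and 5.40 FPKM, highest in liver 3. Gata4 thus differed in its highest liver from 12 of these 15 factors. Of 11 genes of periportal and arterial endothelium, 9 were above their mean in liver 2 (6 of the 7 that reach the minimum), with Ltbp4 at 10.7, 16.7, 15.0 and 11.6 FPKM, and of 8 genes of pericentral endothelium 3 were (2 of the 3 that reach it). Of the 10 other scavenger and endocytic receptors, 6 were above their mean in liver 2, against the same 45.1%, and 2 in liver 1, against 47.2%, or 6 and 0 of the 8 that reach it. The most abundant of these, both also expressed by hepatocytes, differed in order: Scarb1, the HDL receptor gene, was 128, 125, 159 and 163 FPKM, lowest in liver 2, and Cd36 was 47.2, 67.1, 37.0 and 57.0 FPKM, highest there.

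Genes of capillary and continuous endothelium were set beside the members because MASH is a fibrotic disease. Plvap, which forms the diaphragms of endothelial pores, was 29.2, 29.5, 26.9 and 28.6 FPKM, close to Clec4g and between 6.11 and 8.38 times Stab2. Cd34 was 1.72, 2.56, 1.63 and 1.38 FPKM, between 0.361 and 0.529 of Stab2, with its lowest share in liver 4 as for Vwf. Fabp4, which adipocytes also express, was 11.1, 37.5, 11.6 and 18.2 FPKM. Of the 15 genes, 12 were above their mean in liver 2, against 45.1% of all genes, and 8 in liver 1, against 47.2% (10 and 7 of the 12 that reach the minimum). Without livers of untreated or healthy animals, these ratios carry no reference level.

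Angiocrine genes, through which endothelium signals to hepatocytes, were mostly low. Rspo3, an enhancer of Wnt signalling, was 1.91, 2.57, 1.86 and 2.27 FPKM, and the Wnt ligands of central vein endothelium, named after their values were seen, were lower still, with Wnt2 between 0.499 and 0.712 FPKM and Wnt9b between 0.198 and 0.418 FPKM. Il6 was listed at 0 in all 4 livers, which, as for Alb, cannot be read as absence. Igf1, from 120 to 176 FPKM, and Cxcl12, from 126 to 164 FPKM, are also expressed outside endothelium. Of the 11 angiocrine genes above 0, 8 were above their mean in liver 2 and 2 in liver 1 (6 and 2 of the 8 that reach the minimum). Of the 9 adhesion genes, 5 were above it in liver 2 and 4 in liver 1 (2 and 2 of the 4 that reach it), where the shares of all genes were 45.1% and 47.2%. Vcam1, an adhesion molecule for leukocytes, was 6.46, 10.2, 6.67 and 8.13 FPKM, in the order of Lyve1 with livers 1 and 3 low, while Icam1 varied only from 6.48 to 6.85 FPKM.

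Markers of other cell types that express some of the members moved partly with them. All 10 Kupffer cell and macrophage markers were above their mean in liver 2, against 45.1% of all genes, and 8 of 10 in liver 4, against 60.8% (8 and 7 of the 8 that reach the minimum). Their summed level was 204, 294, 189 and 274 FPKM in livers 1 to 4, with C1qa at 44.0, 76.8, 41.5 and 62.2 FPKM. This order of the sum and of C1qa, with liver 2 highest, liver 4 next and liver 3 lowest, is that of Pecam1 and Stab2. Single markers differed: liver 2 was the highest for 5 of the 10, against 22.0% of all genes, liver 4 for 4 and liver 1 for 1. Platelet and megakaryocyte markers summed to 6.42, 12.0, 5.45 and 9.70 FPKM, of which most is Pf4. Ppbp, a platelet chemokine gene, was 0.361, 2.02, 0.275 and 0 FPKM, and the other 4 platelet markers were at 0.747 FPKM or below. Of the 6 platelet markers, 4 were above their mean in liver 2, against 45.1% of all genes (1 of the 1 that reaches the minimum). Itga2b and Gp9, named after their values were seen, were below it there, with their highest values in livers 1 and 4. B cell markers summed to 3.10, 3.43, 2.86 and 4.26 FPKM, with the highest sum in liver 4, while Fcgr2b was highest in liver 2. Stellate cell markers summed to 99.1, 112, 94.5 and 94.0 FPKM, and 7 of 10 were above their mean in liver 2 (7 of the 9 that reach it). Of 6 cholangiocyte markers, 5 were above their mean in liver 2 (4 of the 5 that reach it), and of 5 lymphatic markers, 3 (2 of 3), with Prox1, which hepatocytes also express, at 9.78, 7.60, 11.3 and 8.57 FPKM. Of 7 hepatocyte markers above 0, which leaves out Alb, 0 were above their mean in liver 2. The part of these cell types in the member values was not tested.

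**Figure D4:**
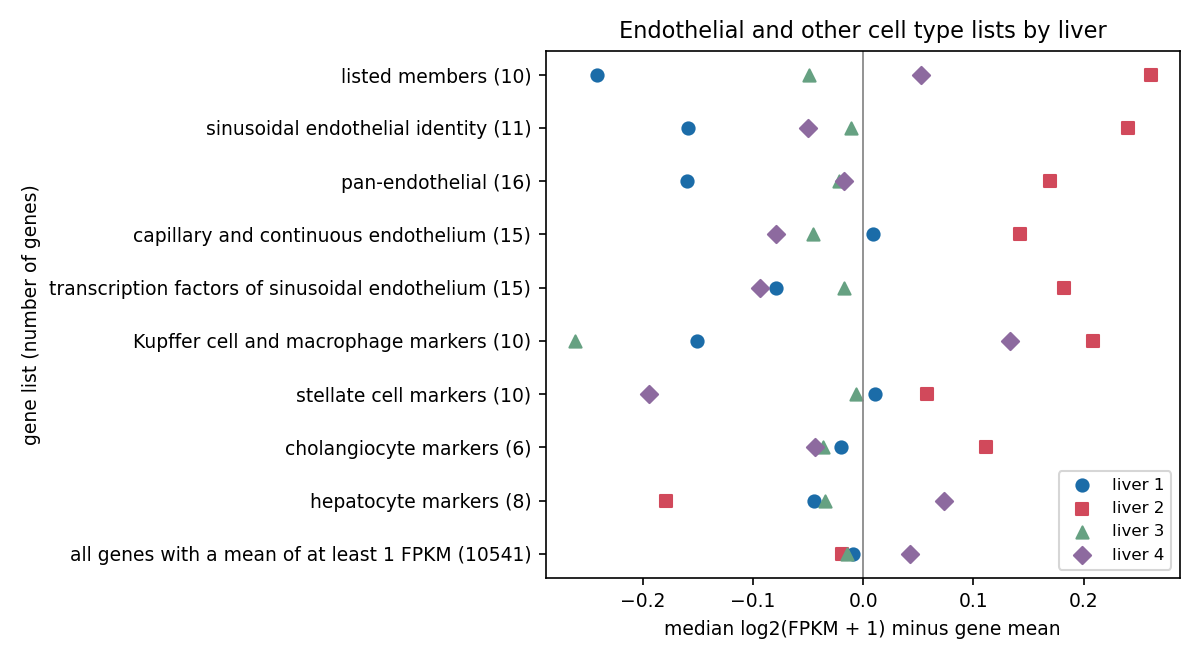
Median deviation from the gene means, on the log2(FPKM + 1) scale, of the 10 members and of other gene lists in each liver, with the number of measured genes in parentheses (for hepatocyte markers this includes Alb, listed at 0). Liver 2 is to the right for the endothelial, macrophage, stellate cell (0.06) and cholangiocyte (0.11) lists plotted and to the left for hepatocyte markers. Liver 1 is at -0.24 for the members and at 0.01 for capillary and continuous endothelium.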

How the data were processed

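Poly(A)-enriched RNA of 4 livers was sequenced, per the labels' protocols. The submitters' processing notes name FastQC 0.10.1, Trim Galore 0.6.3, cutadapt, STAR 2.7.6a, Cufflinks 2.2.1 and mm10; settings and annotation are not given in the sources used here. The authors deposited FPKM values without naming the unit; it was inferred from the values and the Cufflinks identifiers. Columns were matched through the sample descriptions, and 0 were left over.

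Values were analysed with Python 3.11.15 and pandas 2.3.3 as log2(FPKM + 1), with SDs over 4 livers. The background holds all genes whose mean reached 1 FPKM. The labels number the livers without naming the animals, so the spread may be partly technical. Starts had 1 added, which matched RefSeq starts in 52% of 22565 genes against 3% as deposited. Fragment numbers used the assumed depth and the shortest RefSeq-matched GENCODE vM21 transcript less 200 bases. Intervals cover counting error at that depth only. The procedures were tested on simulated data.

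The members and the 19 other lists (165 further symbols, 161 in the table; 1 more symbol is not reported here) were chosen with earlier results of these data known. Genes were named from the members, the 2 highest genes of each list, genes listed at 0 and a fixed set of partners that includes Cd34 and Plvap; others are marked as chosen after their values were seen. Alternatives were another pseudocount, median-ratio scaling, stricter minima, the mean for the median, Cdh5 for Pecam1, and leaving out each liver.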

Additional observations from a re-analysis of the deposited data

Results flagged for a closer look

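No member had a liver far from the others by the ratio of the gap to the range (Dixon's 95% critical value for 4 samples), which chance exceeds in about 1 of 20 groups. Of the other genes named by the rule, Egfl7, a factor secreted by endothelium, exceeded it at 0.88, with 8.54 FPKM in liver 1 and 10.9, 10.8 and 10.6 FPKM in livers 2, 3 and 4. The low liver was the one in which all 10 members were below their means. Apoa1, a hepatocyte gene, exceeded it at 0.87, with livers 1 to 3 from 11922 to 12320 FPKM and liver 4 at 15343 FPKM.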

How the results depend on the processing

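Of 108 alternative values for the summary measures, 99 kept their direction and stayed within the spread between livers or within 1.5 times the count. With a pseudocount of 5, 0 members had an SD of at least 0.25. Of the 5 members that reach a mean of 5 FPKM, 3 were above their mean in liver 2 and 3 in liver 4, and the median deviation in liver 3 changed sign, from -0.0497 to 0.00778. When a liver was left out, the members with an SD of at least 0.25 numbered 2 to 6 and the median SD was 0.18 to 0.31. The median deviation in liver 1 was -0.22 to -0.14, in liver 2 0.21 to 0.23 (0.41 and 0.14 with pseudocounts of 0.1 and 5, and 0.16 for the members that reach 5 FPKM, beside 0.26), in liver 3 -0.0974 to 0.0426 (0.0426 without liver 2) and in liver 4 -0.0425 to 0.0905 (-0.0425 without liver 1). The members above their mean were 0 to 1 in liver 1, 8 to 9 in liver 2, 2 to 6 in liver 3 and 4 to 9 in liver 4. Without Gata4, an alternative chosen after seeing the data, the median deviations kept their signs, and the median SD of the members was 0.21 in place of 0.26. The cause of these changes was not tested, except that the stricter minimum leaves fewer genes. No paired analysis between groups was possible because the samples form a single group. At the assumed depth, fragment numbers were lowest for Vwf, at about 89 to 183 a liver.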
